A study of Danio rerio with 6 samples.

Results

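Fatty acids enter a liver cell through surface and transport proteins and are then joined to coenzyme A by acyl-CoA synthetases. In the livers of zebrafish larvae treated with the PPARα agonist GW7647, 3 of 10 such genes rose (slc27a1b, acsl1b and acsl4a), against 3.39% of all genes tested, and none fell (2.62% of all genes tested). The genes were taken by name from the deposited tables, 10 of the 25281 genes listed there: cd36 and 3 members of the slc27a family (slc27a1b, slc27a2a, slc27a4) on the uptake side, and 6 members of the acsl family (acsl1a, acsl1b, acsl3b, acsl4a, acsl4b, acsl5) on the activation side. All 10 passed the filter on low counts, which kept 15705 genes. They were chosen with earlier results of these data known, so the shares over all genes give a scale and no test. Zebrafish carry a pair of copies (paralogs, marked a and b) of many genes that mammals have once, so each paralog was compared with its partner in abundance and in response. The slc27a1b name is split over 2 deposited entries. The entry used here covers the whole gene (ENSDARG00000104949), and the other one (ENSDARG00000038352) holds at most 1 read in any library and was not tested.

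Poly(A)+ RNA of dissected livers was sequenced in 6 libraries. Of these, 3 came from Tg(fabp10a:pt-Beta-catenin) larvae given 1 µM GW7647 for 2 days, from 13 to 15 days post-fertilization (dpf), and 3 came from larvae of the same transgenic strain and age given the solvent DMSO over the same days. Both groups thus carry the transgene, in which the hepatocyte promoter of fabp10a drives a stabilized Xenopus β-catenin, and both were left unfed during treatment. There was no library of non-transgenic larvae, so each value compares GW7647 with DMSO inside this one model of liver injury. Each library pooled the livers of many larvae, and nothing in the labels says more of how replicates were separated, so p-values measure the spread between these pools. In bulk RNA of a whole liver, fewer cells of a type and less RNA per cell cannot be told apart.

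Long-chain fatty acids bind CD36 at the cell surface, and the fatty acid transport proteins encoded by SLC27 genes take them up, several of them acting as acyl-CoA synthetases for very long chains as well. The ACSL enzymes activate long-chain fatty acids to acyl-CoA, the form in which they are oxidized in mitochondria and peroxisomes or esterified into triglycerides and phospholipids. PPARα is a nuclear receptor that is activated by fatty acids, and in rodent liver it is known to switch on genes for fatty acid uptake, activation and oxidation. GW7647 is a synthetic agonist of PPARα.

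The GW7647 libraries held 20387153 to 25224356 reads on exons and the DMSO libraries 19961881 to 22332909. Counts are given below as CPM (exon reads scaled to a common library total, after TMM scaling between libraries), and 3 reads corresponded to 0.127 to 0.163 CPM. A gene was called a differentially expressed gene (DEG) where its fold change was at least 1.5 and its adjusted p in edgeR's quasi-likelihood test at most 0.05. By this rule 945 of the 15705 genes tested (6.02%) were DEGs: 533 (3.39%) rose with GW7647 and 412 (2.62%) fell. The share of DEGs that were higher was 56.4% with TMM and varied between fits. It was 45.7% with upper-quartile factors and 17.5% with library totals alone. With library totals the median log2 fold change of all genes tested was -0.23 in place of -0.01. In limma fits, which change the test as well as the scaling, it was 31.6% on RPKM and 27.6% on TPM. With TMM kept, the share was 48.9% with the replicate number as a block and 60.9% to 69.3% with 1 library left out. Hepatocyte markers summed to 62188 to 68602 CPM in GW7647-treated livers and 38216 to 40211 CPM in DMSO-treated livers, and 8 of the 14 tested were DEGs, all higher. Abundant genes weigh most in this sum. The apolipoprotein gene apoa1b alone had 12873 to 14521 CPM in GW7647-treated livers and 4534 to 4750 CPM in DMSO-treated livers. Among the markers tested, tfa, fgg, ambp, cp, bhmt and apobb.1 were not DEGs. The part of this difference in hepatocyte markers in the values below was not tested.

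Among the 10 genes, 3 were DEGs and all 3 were higher, against 6.02% of all genes in either direction and 3.39% higher. The log2 fold change was positive for 8 of the 10, with a median of 0.43, against a median of -0.01 over all genes tested. The share of all genes with a positive value was not computed. Among the 8, acsl1a (0.03) and acsl5 (0.21) turned negative with library totals alone. In 4 of the 10 (slc27a1b, acsl1b, acsl3b and acsl4a) the lowest GW7647 value exceeded the highest DMSO value, which held for 15.7% of all genes tested, and in 0 of them the groups lay apart in the other direction (15.3%). Either way, groups lay apart in 31.0% of all genes. The same 4 had an adjusted p of at most 0.05, as did 9.06% of all genes in either direction and 5.50% with a higher value.

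**Figure D1:**
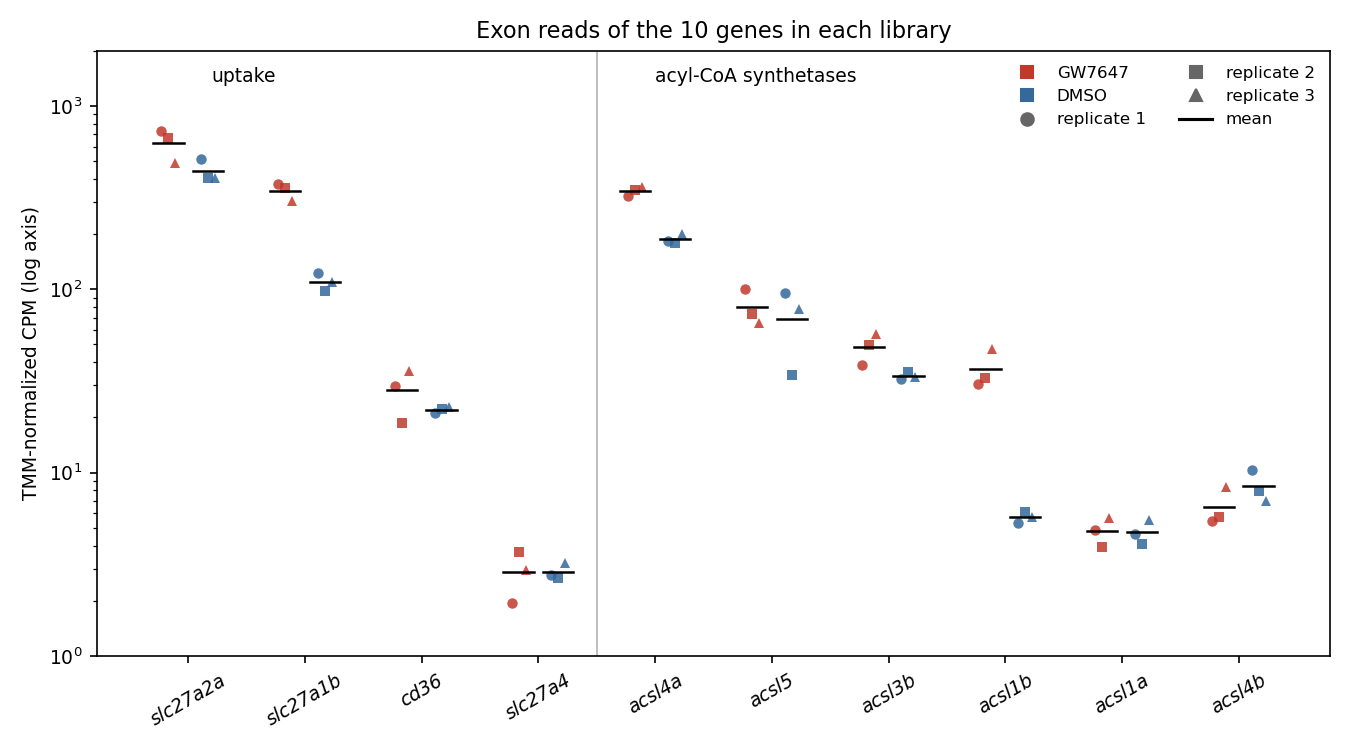
TMM-scaled exon CPM (log axis) of the 10 genes in each of the 3 GW7647 libraries (left for each gene) and the 3 DMSO libraries (right), with marker shape giving the replicate number and a line at the group mean. The groups are apart for slc27a1b, acsl1b, acsl3b and acsl4a, while acsl5 spans 34.2 to 95.7 CPM within the DMSO group alone.

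On the uptake side, slc27a1b (chromosome 1, 58544659 to 58562129, minus strand) rose most. Its mammalian counterpart, SLC27A1 or FATP1, is a long-chain fatty acid transporter known best from muscle and adipose tissue. The gene had 375, 357 and 302 CPM in the GW7647 libraries, against 122, 98.0 and 109 CPM in the DMSO libraries. Thus the lowest GW7647 library stood well above the highest DMSO library. The group means were 345 ± 38.3 CPM in GW7647-treated livers and 110 ± 12.3 CPM in DMSO-treated livers (SD, n = 3 each), a 3.14-fold difference. The log2 fold change was 1.65 (SE 0.12; edgeR adjusted p = 1.4e-04) and lay between 1.58 and 1.74 when any 1 library was left out.

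slc27a2a was the most abundant of the uptake genes, and its groups overlapped. SLC27A2 (FATP2) is a main fatty acid transporter of the mammalian liver and also activates very long-chain fatty acids. The zebrafish gene (ENSDARG00000036237, chromosome 18, 62932 to 73844, plus strand) had 732, 666 and 491 CPM in the GW7647 libraries, against 511, 406 and 404 CPM in the DMSO libraries. One GW7647 library (replicate 3) fell below the highest DMSO library. The log2 fold change was 0.52 (SE 0.16; edgeR adjusted p = 0.082), so the gene was not a DEG. With the replicate number as a block it was 0.50 with an edgeR adjusted p of 0.0077, the same-numbered differences being 0.52, 0.72 and 0.28, and DESeq2 gave an adjusted p of 0.022, so both passed the p threshold and missed the fold threshold. It passed both thresholds without GW7647 replicate 3, at a log2 fold change of 0.67 and an edgeR adjusted p of 0.034, and its log2 fold change over all 6 ways of leaving out 1 library was 0.40 to 0.67. The value was lower with other scaling: 0.46 with upper-quartile factors and 0.29 with library totals in edgeR, and 0.29 on RPKM and 0.32 on TPM in limma. In those edgeR and limma fits the adjusted p was 0.11 to 0.22. Between 84.2% and 86.7% of the exon reads of slc27a2a mapped to 1 place only, against 96.3% to 96.8% over all genes.

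The remaining pair of uptake genes were not DEGs. cd36 (ENSDARG00000032639, chromosome 4, 22658472 to 22671469, minus strand), the surface receptor, had 29.8, 18.6 and 35.8 CPM in the GW7647 libraries, against 21.2, 22.2 and 22.7 CPM in the DMSO libraries. The DMSO libraries lay close together, while the GW7647 libraries lay on both sides of them. Its log2 fold change was 0.35 (SE 0.20; edgeR adjusted p = 0.32), with a range of 0.14 to 0.58 when 1 library was left out. The upper end, without GW7647 replicate 2, had an edgeR adjusted p of 0.039 and was below the 1.5-fold threshold, and the lower end was without GW7647 replicate 3. slc27a4 (ENSDARG00000017047, chromosome 10, 10738880 to 10782810, plus strand), whose mammalian counterpart is known from intestine and skin, had few reads, 36 to 76 in the GW7647 libraries and 60 to 74 in the DMSO libraries. It averaged 2.85 ± 0.864 CPM in GW7647-treated livers and 2.88 ± 0.309 CPM in DMSO-treated livers (SD, n = 3 each), with a log2 fold change of -0.01 (SE 0.25; edgeR adjusted p = 0.99) whose sign changed when single libraries were left out.

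Among the synthetases, acsl1b changed most of all 10 genes. ACSL1 is the major long-chain acyl-CoA synthetase of rodent liver and heart and a known PPARα target in rodents. acsl1b (ENSDARG00000003854, chromosome 14, 937194 to 970853, minus strand) had 30.5, 32.8 and 47.0 CPM in the GW7647 libraries, against 5.29, 6.12 and 5.72 CPM in the DMSO libraries. These values came from 561, 677 and 1107 reads in the GW7647 libraries and 115, 143 and 131 reads in the DMSO libraries. All GW7647 libraries exceeded all DMSO libraries several times over. The difference was 6.43-fold, a log2 fold change of 2.69 (SE 0.18; edgeR adjusted p = 8.4e-05), and it was 2.47 to 2.81 when any 1 library was left out.

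Its partner acsl1a gave no such difference. acsl1a (ENSDARG00000030514, chromosome 1, 17537451 to 17587552, minus strand) had 4.84, 3.92 and 5.64 CPM in the GW7647 libraries, against 4.60, 4.06 and 5.51 CPM in the DMSO libraries. The ranges nearly coincided. The log2 fold change was 0.03 (SE 0.19; edgeR adjusted p = 0.95), and its sign turned to -0.03 with upper-quartile factors, -0.20 with library totals alone, -0.09 on RPKM and -0.11 on TPM.

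acsl4a also rose, less than acsl1b but from a higher level. ACSL4 in mammals prefers arachidonic acid and other polyunsaturated fatty acids. acsl4a (ENSDARG00000004078, chromosome 14, 28438947 to 28459446, plus strand) had 322, 349 and 361 CPM in the GW7647 libraries, against 184, 179 and 201 CPM in the DMSO libraries. The spread within each group was small beside the gap between the groups. The means were 344 ± 20.2 CPM in GW7647-treated livers and 188 ± 11.3 CPM in DMSO-treated livers (SD, n = 3 each), a 1.83-fold difference with a log2 fold change of 0.87 (SE 0.09; edgeR adjusted p = 0.0011) that stayed between 0.84 and 0.93 with any 1 library left out.

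Its partner acsl4b was scarce and its groups overlapped. acsl4b (ENSDARG00000010752, chromosome 5, 23518399 to 23581355, minus strand) had 5.43, 5.76 and 8.40 CPM in the GW7647 libraries, against 10.4, 7.96 and 7.04 CPM in the DMSO libraries. Its log2 fold change was -0.36 (SE 0.21; edgeR adjusted p = 0.32). It was -0.19 without DMSO replicate 1 and -0.59 without GW7647 replicate 3, the ends of its range with 1 library left out. Over 5028 bases the gene overlaps cwc15, a splicing factor gene on the same strand, which averaged 43.3 ± 0.602 CPM in GW7647-treated livers and 43.7 ± 6.40 CPM in DMSO-treated livers (SD, n = 3 each), so reads of the 2 genes may not be fully separated. slc27a2a, acsl4a and acsl5 each overlap a gene on the opposite strand over 4 to 536 bases, and whether reads were counted by strand is not given in the sources used here.

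acsl3b and acsl5 were not DEGs. ACSL3 in mammals sits at the endoplasmic reticulum and on lipid droplets, and acsl3b (ENSDARG00000014674, chromosome 2, 47471647 to 47516648, plus strand) had 38.8, 49.6 and 56.9 CPM in the GW7647 libraries, against 32.5, 35.5 and 33.3 CPM in the DMSO libraries. The groups did not overlap, with the GW7647 libraries spread widely and the DMSO libraries close together. The log2 fold change was 0.52 (SE 0.14, edgeR adjusted p = 0.047), which is below the 1.5-fold threshold. Without GW7647 replicate 1 it was 0.66 with an edgeR adjusted p of 0.013, and the gene then passed both thresholds. The edgeR adjusted p was as high as 0.13 without another library. Other fits gave lower values: 0.47 with upper-quartile factors and 0.30 with library totals in edgeR, and 0.25 on RPKM and 0.29 on TPM in limma. Their adjusted p in the same edgeR and limma fits was 0.070 to 0.23. ACSL5, known from mammalian intestine and liver, had its zebrafish counterpart acsl5 (ENSDARG00000075931, chromosome 12, 31438579 to 31461412, minus strand) at 100.4, 73.6 and 65.6 CPM in the GW7647 libraries, against 95.7, 34.2 and 77.7 CPM in the DMSO libraries. A single low library, DMSO replicate 2, set the sign: the log2 fold change was 0.21 (SE 0.32; edgeR adjusted p = 0.74) with it and -0.12 without it, and -0.03 with library totals alone. That library also had the highest summed exocrine pancreas markers (96.8 CPM) and muscle markers (66.6 CPM) of the 6, whose part in the acsl5 value was not tested.

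**Figure D2:**
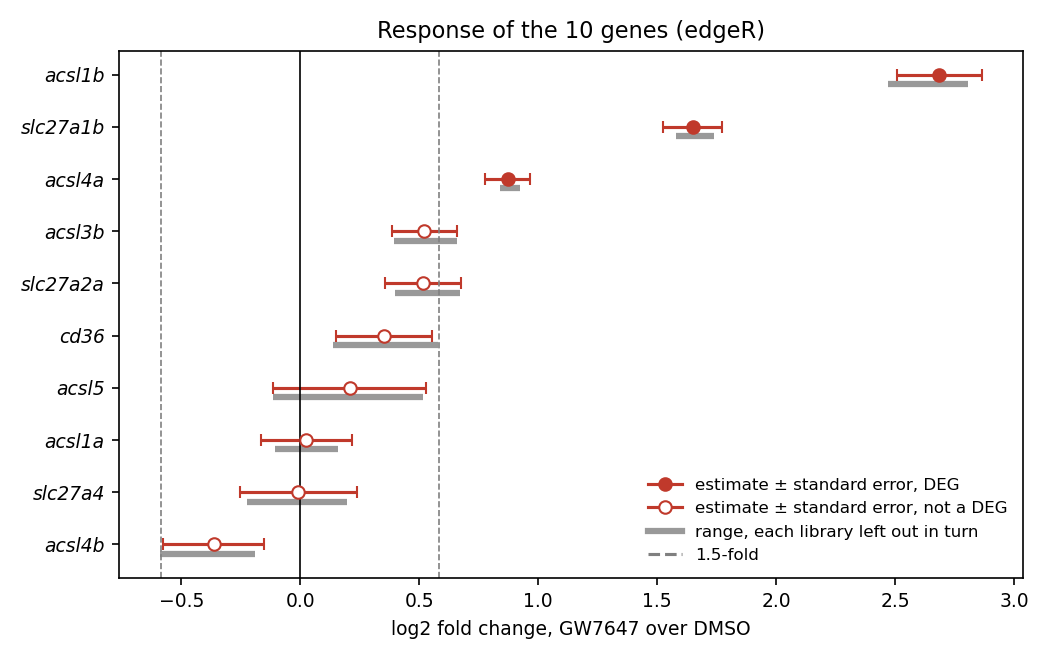
Log2 fold change (GW7647 over DMSO, edgeR, exon reads) of the 10 genes with its standard error. Filled points are DEGs, grey bars give the range over the 6 fits that lack 1 library, and dashed lines mark a fold change of 1.5. acsl1b (2.69), slc27a1b (1.65) and acsl4a (0.87) stand to the right of the dashed line over their whole ranges, and the grey bars of slc27a4, acsl1a and acsl5 cross 0.

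The paralogs of a pair were then compared inside each library, as the log2 ratio of their exon reads, a quantity that library scaling does not touch. In 5 pairs tested, including the partner genes acsl3a, slc27a1a and slc27a2b, the GW7647 and DMSO libraries did not overlap. Each pair held a gene that was a DEG (acsl1b, acsl4a, acsl3a, slc27a1b or slc27a2b), so the ratios are not separate from those calls. For single genes the groups lay apart in 31.0% of all genes tested, and no such share was computed for ratios. The two-sided exact permutation test gave p = 0.1 for each pair, also after Benjamini-Hochberg adjustment over the 5 pairs, the smallest p that 3 against 3 libraries allow, so no pair could pass 0.05.

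In the acsl1 pair the more abundant copy per kilobase of exon was not the same one in both groups. The log2 ratio of acsl1b to acsl1a was 2.92 ± 0.234 in GW7647-treated livers and 0.28 ± 0.275 in DMSO-treated livers (SD, n = 3 each), a difference of 2.64 or 6.22-fold. Per kilobase of exon, acsl1b had 3.96, 5.25 and 5.23 times the CPM of acsl1a in the GW7647 libraries, against 0.722, 0.946 and 0.653 times in the DMSO libraries. Thus, per kilobase, acsl1b was the less abundant copy in every DMSO library and the more abundant copy in every GW7647 library. This order in the DMSO libraries rests on the deposited exon lengths of 7443 bases for acsl1b and 4676 for acsl1a. Before division by length, acsl1b had more CPM than acsl1a in every DMSO library as well.

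In the acsl4 pair, the same copy was the more abundant one in both groups. acsl4a had 82.6 to 116 times the CPM per kilobase of acsl4b in the GW7647 libraries and 34.1 to 54.7 times in the DMSO libraries. The log2 ratio of acsl4b to acsl4a was -5.74 ± 0.274 in GW7647-treated livers and -4.49 ± 0.340 in DMSO-treated livers (SD, n = 3 each), a difference of -1.25. The abundant copy was the one that rose.

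The acsl3 pair went the other way, since the scarce copy rose. acsl3a was a DEG with 3.26, 9.20 and 14.9 CPM in the GW7647 libraries, against 0.829, 0.684 and 1.70 CPM in the DMSO libraries, a log2 fold change of 3.09 (SE 0.55; edgeR adjusted p = 0.012). Its adjusted p was 0.052 without DMSO replicate 2, and its reads ranged from 60 to 351 in the GW7647 libraries and from 16 to 39 in the DMSO libraries. The log2 ratio of acsl3b to acsl3a was 2.64 ± 0.835 in GW7647-treated livers and 5.06 ± 0.710 in DMSO-treated livers (SD, n = 3 each), a difference of -2.42. acsl3b remained the more abundant copy in all libraries.

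Of the transporters, slc27a1b gained on its partner slc27a1a, whose log2 fold change was 0.20 (edgeR adjusted p = 0.22). Their log2 ratio was 2.89 ± 0.235 in GW7647-treated livers and 1.44 ± 0.166 in DMSO-treated livers (SD, n = 3 each), a difference of 1.45 or 2.74-fold. In the slc27a2 pair the less abundant copy, slc27a2b (listed as zgc:101540, ENSDARG00000100731), was a DEG, and slc27a2a was not. slc27a2b had 98.1, 73.3 and 74.0 CPM in the GW7647 libraries, against 45.2, 35.6 and 41.3 CPM in the DMSO libraries, a log2 fold change of 1.01 (SE 0.14; edgeR adjusted p = 0.0041). The log2 ratio of slc27a2a to slc27a2b was 2.94 ± 0.230 in GW7647-treated livers and 3.43 ± 0.125 in DMSO-treated livers (SD, n = 3 each), a difference of -0.50.

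**Figure D3:**
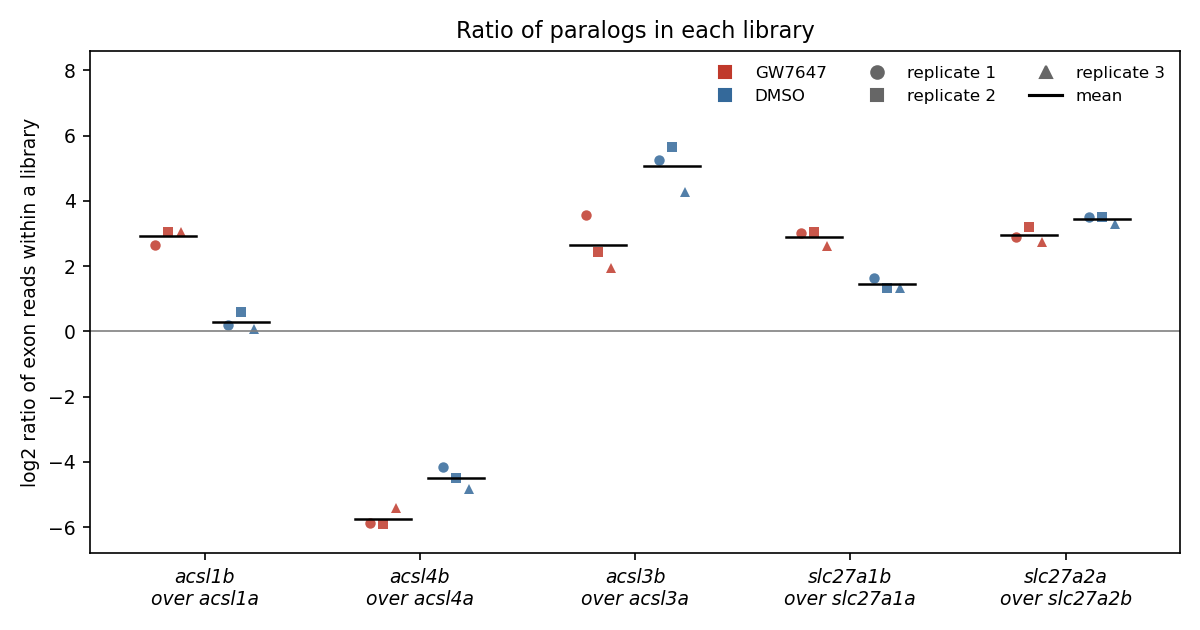
Log2 ratio of exon reads within each library for 5 paralog pairs, with GW7647 libraries left and DMSO libraries right for each pair and a line at the group mean. No pair has overlapping groups, and each pair holds a gene that was a DEG. The ratio of acsl1b over acsl1a averages 2.92 in GW7647-treated livers against 0.28 in DMSO-treated livers, both on the log2 scale.

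Levels of different genes were compared as CPM per kilobase of exon, averaged over the 3 libraries of a group. In GW7647-treated livers the order was slc27a2a (253), slc27a1b (110), acsl4a (89.3), acsl5 (21.1), cd36 (14.9), acsl3b (7.25), acsl1b (4.94), slc27a4 (1.16), acsl1a (1.03) and acsl4b (0.884). The libraries of neighbours overlapped for acsl5 and cd36, for acsl3b and acsl1b, and for the last 3 genes. In DMSO-treated livers it was slc27a2a (177), acsl4a (48.8), slc27a1b (35.1), acsl5 (18.2), cd36 (11.7), acsl3b (5.06), slc27a4 (1.17), acsl4b (1.14), acsl1a (1.01) and acsl1b (0.767), with overlap between acsl5 and cd36 and among slc27a4, acsl4b and acsl1a. Thus slc27a1b stood above acsl4a in the GW7647 order and below it in the DMSO order, and acsl1b, last in the DMSO order, was above 3 genes in the GW7647 order.

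Summed over all listed acsl genes, CPM per kilobase was 123, 127 and 134 in the GW7647 libraries, against 81.4, 63.8 and 81.1 in the DMSO libraries, a 1.69-fold difference of the means (two-sided exact permutation p = 0.1, the smallest possible). acsl4a made up 77.3% of that difference and acsl1b 7.96%, although acsl1b had the larger fold change. The slc27a genes summed to 467, 426 and 341 CPM per kilobase in the GW7647 libraries, against 277, 222 and 229 in the DMSO libraries, also 1.69-fold (p = 0.1 by the same exact test). slc27a2a contributed 45.0% of that difference and slc27a1b 44.5%.

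As shares of the summed TPM of their family, the transporters shifted among themselves. slc27a1b held 26.9% ± 1.3 of slc27a TPM in GW7647-treated livers and 14.5% ± 0.623 in DMSO-treated livers, and slc27a2a held 61.1% ± 2.91 in GW7647-treated livers and 72.7% ± 1.75 in DMSO-treated livers (SD, n = 3 each; two-sided exact permutation p = 0.1 for both, the smallest possible). For both genes the groups did not overlap. Shares of a family have a fixed sum, so the rise of slc27a1b and the fall of slc27a2a are not separate results. The lower share of slc27a2a was not a lower level. Its CPM per kilobase averaged 253 in GW7647-treated livers and 177 in DMSO-treated livers, with overlapping groups. Within the acsl family, acsl1b held 3.84% ± 0.762 in GW7647-treated livers and 1.04% ± 0.221 in DMSO-treated livers (SD, n = 3 each; exact permutation p = 0.1). The share of acsl4a was 69.8% ± 1.74 in GW7647-treated livers and 65.3% ± 7.07 in DMSO-treated livers (SD, n = 3 each; exact permutation p = 0.4), and the groups overlapped. That difference of 4.57 percentage points was 8.34 without DMSO replicate 2, the library low in acsl5, and 1.33 without DMSO replicate 1.

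**Figure D4:**
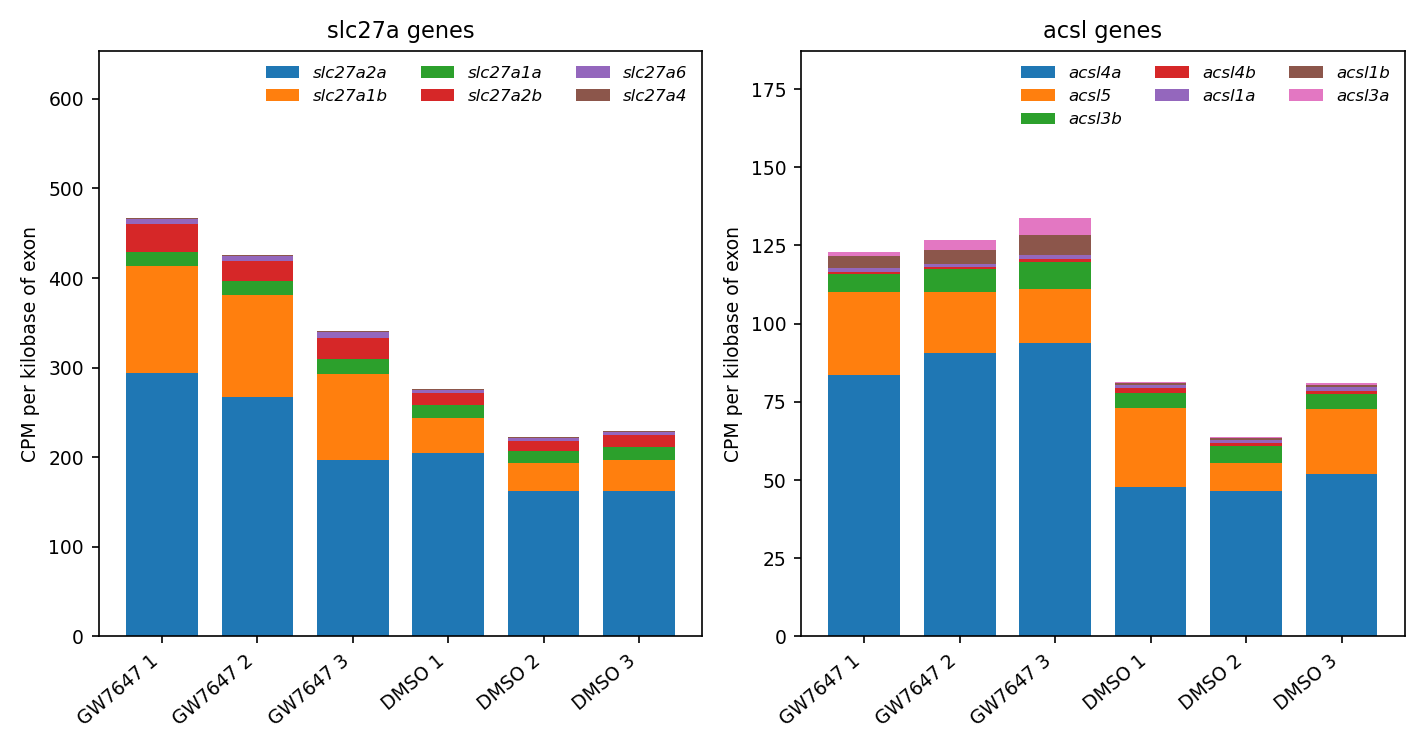
CPM per kilobase of exon of the slc27a genes and of the acsl genes, stacked by gene, in the 3 GW7647 libraries (left) and the 3 DMSO libraries (right), with 1 family in each panel. The minor slc27a1b entry and acsl2, with at most a few reads, are left out. The summed acsl bars reach 123 to 134 in the GW7647 libraries and 63.8 to 81.4 in the DMSO libraries, with acsl4a the largest segment in all 6.

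Reads in introns, which come from unspliced RNA or from other transcripts there, gave a separate readout for the 4 of the 10 genes with enough of them (slc27a1b, slc27a2a, acsl3b and acsl4a). Of these, 1 was a DEG, against 1.13% of the 7864 genes tested on introns, or 0.966% for DEGs that were higher. slc27a1b had 1065, 801 and 1084 intron reads in the GW7647 libraries, against 319, 301 and 440 in the DMSO libraries, with a log2 fold change of 1.58 (SE 0.20; edgeR adjusted p = 5.3e-04). This is close to the value of 1.65 from its exon reads. For acsl4a the intron groups did not overlap, which held in this direction for 8.49% of genes tested on introns, with a log2 fold change of 0.62 (edgeR adjusted p = 0.24), and for slc27a2a and acsl3b it was 0.31 and 0.88 (edgeR adjusted p = 0.73 and 0.36). acsl1b had only 2 to 8 intron reads a library and was not tested on them.

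Other uptake and acyl-CoA synthetase genes were read as lists. These lists were broader than the steps above, since the uptake list took in scarb genes and the synthetase list acsf, acsm and acss genes. Each count in these lists stands beside 3.39% of all genes that were DEGs and higher. Of 9 further uptake genes tested, 2 were DEGs, both higher: slc27a2b, described above, and slc27a6, which averaged 13.3 CPM in GW7647-treated livers and 7.06 CPM in DMSO-treated livers (log2 fold change 0.91; edgeR adjusted p = 0.0038). The median log2 fold change of the 9 was 0.39. got2a and got2b, which encode a mitochondrial aminotransferase also described as a fatty acid-binding protein of the plasma membrane, had log2 fold changes of 0.40 and 0.39 (edgeR adjusted p = 0.023 and 0.043), below the fold threshold.

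Of 11 further acyl-CoA synthetase genes tested, 3 were DEGs, all higher: acsl3a, acsbg1 and acsbg2. The ACSBG enzymes activate long and very long-chain fatty acids. acsbg1 averaged 126 CPM in GW7647-treated livers and 68.7 CPM in DMSO-treated livers, with a log2 fold change of 0.87 (edgeR adjusted p = 0.011). acsbg2 averaged 96.8 CPM in GW7647-treated livers and 46.9 CPM in DMSO-treated livers, with a log2 fold change of 1.05 (edgeR adjusted p = 0.042). The call of acsbg2 was lost in 5 of 6 ways of leaving out 1 library (edgeR adjusted p = 0.076 to 0.13) and held among these only without GW7647 replicate 1. It was also lost with upper-quartile factors (edgeR adjusted p = 0.050) and library totals (0.064), and on RPKM and TPM (limma adjusted p = 0.12 in each). Without DMSO replicate 2, both acsl3a and acsbg2 lost their calls. The median log2 fold change of these 11 genes was 0.36.

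The steps after activation were read in the same way. Among 7 genes of mitochondrial entry 5 were DEGs, all higher, with a median log2 fold change of 1.07, and cpt1b, a carnitine palmitoyltransferase, stood highest at 3.10 and cratb, a carnitine acetyltransferase, lowest at 0.05. Among 9 genes of peroxisomal entry and oxidation 6 were DEGs, all higher (median 0.75), from abcd4 at -0.16 to acaa1, a peroxisomal thiolase, at 1.23. Among 14 genes of esterification 5 were DEGs, all higher (median 0.41), from gpat4 at -0.38 to dgat1a, which makes triglycerides, at 1.76. Of these 5, lpin1b lost its call in 4 of 6 ways of leaving out 1 library (edgeR adjusted p = 0.056 to 0.066) and, with values of 0.36 and 0.55, on RPKM and TPM, and lpin2 lost its call with library totals, on RPKM and on TPM (0.46 to 0.49). Among 12 genes of intracellular binding 4 were DEGs, all higher (median 0.48), from fabp7b at -0.77 to fabp7a at 3.69, both encoding fatty acid-binding proteins. Of those 4, acbd7 lost its call in 5 of 6 ways of leaving out 1 library (edgeR adjusted p = 0.058 to 0.072) and on RPKM, and fabp3 lost its call without GW7647 replicate 2 or 3 (edgeR adjusted p = 0.056 and 0.051), with library totals and on RPKM. With the replicate number as a block, fabp2 was a DEG as well (log2 fold change 1.17, edgeR adjusted p = 0.0034), against an edgeR adjusted p of 0.056 without the block. fabp2 is also on the list of intestine markers, which held 0 DEGs among 8 tested without the block. That list summed to 879 to 943 CPM in GW7647-treated livers and 911 to 1150 CPM in DMSO-treated livers. The largest part of this sum was apoa4b.1, at 531 to 567 CPM in GW7647-treated livers and 502 to 643 CPM in DMSO-treated livers. Another of its genes, cdh17, is also on the biliary list. Of the 8 tested, 4 had a positive log2 fold change, so the sum does not stand for each gene. The 2 receptor genes pparaa and pparab, which encode PPARα, had log2 fold changes of -0.29 and -0.70 (edgeR adjusted p = 0.22 and 0.25), and pparda was the 1 DEG of 5 PPAR genes tested, at 0.60 (edgeR adjusted p = 0.020), a call lost in 4 of 6 ways of leaving out 1 library.

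Markers of other cells were read beside these values, and their part in the results was not tested. Over all genes tested, 2.62% were DEGs and lower, and 3.39% were DEGs and higher. Biliary markers summed to 11008 to 11533 CPM in GW7647-treated livers and 12542 to 14036 CPM in DMSO-treated livers, with 2 of 9 tested genes DEGs, both lower. Stellate cell markers summed to 58.5 to 72.1 CPM in GW7647-treated livers and 103 to 141 CPM in DMSO-treated livers, with 5 of 8 DEGs, all lower. Macrophage markers summed to 86.3 to 95.2 CPM in GW7647-treated livers and 95.4 to 117 CPM in DMSO-treated livers, with 2 of 9 DEGs, both lower. Endothelial markers, at 225 to 256 CPM in GW7647-treated livers and 230 to 256 CPM in DMSO-treated livers, held 0 DEGs among 10. Neutrophil markers summed to 11.3 to 13.2 CPM in GW7647-treated livers and 15.6 to 57.0 CPM in DMSO-treated livers, with 2 of 5 DEGs, both lower. Of the 57.0 CPM in DMSO replicate 1, 35.8 CPM came from 1 entry of mmp13a. That entry was at 5.22 and 2.62 CPM in DMSO replicates 2 and 3 and was not a DEG. Genes of the adipocyte list summed to 103 to 140.3 CPM in GW7647-treated livers and 76.3 to 105 CPM in DMSO-treated livers. Of the 3 tested, cidec, which encodes a lipid droplet protein, was a DEG and higher (log2 fold change 1.03, edgeR adjusted p = 0.020), and cfd and fabp11a were not DEGs. Of the adiponectin genes, neither of which was tested, adipoqb was at 0 reads in all 6 libraries. The other, adipoqa, was at 0.109 to 0.424 CPM in GW7647-treated livers and 0.0921 to 0.257 CPM in DMSO-treated livers.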

How the data were processed

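RNA of pooled dissected livers (TruSeq stranded poly(A)+ libraries) was mapped by the authors in CLC Genomics Workbench, whose version, genome build, strand setting and handling of multiply mapped reads are not given in the sources used here. Deposited counts are whole numbers of reads on a gene's exons, not normalized. The authors' software also gave the deposited TPM and RPKM values, which divide by exon length and library total. Intron reads, unique reads and all reads on the gene are deposited counts as well. Deposited positions are printed as given, counted from 1. The deposited columns of gene structure and read ratios were not tested.

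Counts were tested with edgeR 4.0.16 (R 4.3.3; TMM, filterByExpr with minimum count 10, no covariate, Benjamini-Hochberg over 15705 genes; 7864 for introns), with standard errors from the F statistic. DEG thresholds (1.5-fold, adjusted p 0.05) follow the study's methods. Ratios used reads + 0.5 and SciPy 1.17.1 exact permutation tests. On simulated counts the fit recovered 192 of 200 changed genes among 15705 (14 false calls), and 148 of 200 among 7864 for introns (12 false). The planted log2 fold changes were 1 and 2 in size, so recovery near the 1.5-fold threshold was not measured. None was planted in the genes of lowest counts. The planted changes were split evenly between higher and lower. The real TMM factors were 0.903 to 0.940 in the GW7647 libraries and 1.05 to 1.10 in the DMSO libraries. No such difference in scaling was planted, so its effect on the calls was not measured. For introns, 53 of the recovered genes had the smaller change and 95 the larger. Members and lists were chosen with earlier results of these data known. The rule for named genes was all 10 members, the DEGs among other uptake, synthetase and PPAR genes, and the highest and lowest gene of each other pathway list. Genes named outside it (slc27a1a, got2a, got2b, pparaa, pparab, cwc15, fabp2, fabp3, acbd7, lpin1b, lpin2, cidec, cfd, fabp11a, adipoqa, adipoqb, mmp13a, apoa1b, apoa4b.1, cdh17, tfa, fgg, ambp, cp, bhmt, apobb.1) were chosen after their values were seen. The gene lists matched 190 deposited rows, 174 by name, 8 by a numbered name and 8 through an identifier table, and 5 entries were not found.

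Same-numbered libraries correlated at 0.161 to 0.324 in their deviations from the group means, and all others at -0.239 to 0.0754. Subtracting the group means pushes the other correlations down where the same-numbered ones are up, so the low values are not separate support. For the replicate block and the paired ratios the numbers were taken to pair the libraries, on this check alone. The main fit used no pairing. Alternatives were DESeq2 1.42.0, upper-quartile factors, library totals, filters of 1 read in any or 10 reads in every library, the replicate block, each library left out, unique reads, all reads on the gene, 1 read added to ratios, shares of reads, and limma 3.58.1 on log2(RPKM + 1) and log2(TPM + 1). Figures were drawn with matplotlib 3.10.9.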

Additional observations from a re-analysis of the deposited data

How the results depend on the processing

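Of the 10 genes, the calls of slc27a1b, acsl1b and acsl4a held under every alternative run. Their log2 fold changes were 1.41 to 1.74, 1.54 to 2.81 and 0.65 to 0.93. The low end for acsl1b was on log2(RPKM + 1), a fit that adds 1 to each value and uses no TMM scaling. The part of each in that value was not tested. With the replicate block, which pairs the same-numbered libraries, the same 3 genes were DEGs and no call among the 10 changed (fabp2 was gained among the list genes), while DEGs lower over all genes numbered 699 in place of 412. DEGs higher numbered 533, and 321 with library totals, 260 on RPKM and 297 on TPM; DEGs lower numbered 1511 with library totals and 778 on TPM. With 1 library left out, DEGs higher were 401 to 530 and DEGs lower 189 to 340, the lowest without DMSO replicate 2 and 194, 225 and 261 without GW7647 replicates 2, 1 and 3. The direction turned for 3 genes that passed no test. slc27a4 was at 0.00027 with the filter of 1 read, 0.0088 on all reads of the gene, and 0.09 and 0.20 without DMSO replicate 3 and GW7647 replicate 1 (range -0.22 to 0.20 with 1 library left out). acsl1a was at -0.027 with upper-quartile factors, -0.20 with library totals, -0.0046 on all reads, -0.092 on RPKM, -0.11 on TPM, and -0.11 and -0.07 without GW7647 replicate 3 and DMSO replicate 2 (range -0.11 to 0.16). acsl5 was at -0.029 with library totals and -0.12 without DMSO replicate 2 (range -0.12 to 0.52). Causes were not tested. The mean paired ratio difference equals the difference of the group means by construction, so pairing could not change its size. An exact sign-flip test over 3 pairs cannot go below p = 0.25. pparda lost its call with upper-quartile factors, library totals, RPKM and TPM and in 4 of 6 ways of leaving out 1 library, and slc27a6 on log2(RPKM + 1), where it was 0.56.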
